A study of Homo sapiens with 12 samples.

Results

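Oxidative phosphorylation (OXPHOS) subunits are the proteins that build complexes I to V of the inner mitochondrial membrane, together with the mobile carrier cytochrome c. They were chosen by gene symbol as the array annotation gives it. The symbols taken were those that begin with NDUFA, NDUFB, NDUFC, NDUFS, NDUFV, SDHA to SDHD, UQCR, COX4 to COX8, ATP5F1, ATP5M or ATP5P, plus CYC1 and CYCS. Of 90 matching symbols, 10 assembly factors were left out, so that 80 of the 18665 genes named on the array were members. They comprised 77 subunit genes and the pseudogenes ATP5F1EP2, SDHAP1 and SDHAP3, which are counted apart. Complex I held 33 of the subunit genes, complex II 3, complex III 8, complex IV 16, complex V 16 and cytochrome c 1.

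mRNA was measured on 12 Illumina Human-WG6 BeadChip arrays in SW-13 cells, an established line from a carcinoma of the adrenal cortex. The study describes the line as deficient in BRG1, the ATPase of the SWI/SNF chromatin remodelling complex encoded by SMARCA4. All 12 samples carried an adenovirus, which encoded GFP (Ad-GFP) or a GFP-BRG1 fusion protein (Ad-BRG1), and cells of either kind were left untreated or exposed to interferon-γ (IFNγ) for 6 h. Each of the 4 groups had 3 arrays, described in the methods of the study as biological replicates. There was no group without virus, and per the methods the BRG1 virus was titrated to the protein level of HeLa cells, so the groups model acute restoration of BRG1 in 1 cell line. The arrays set cells without BRG1 beside cells with it, before and after IFNγ.

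The respiratory chain passes electrons from NADH (complex I) or succinate (complex II) through complex III, cytochrome c and complex IV to oxygen, and complex V uses the proton gradient so made to synthesise ATP. Most subunits are encoded in the nucleus, translated in the cytosol and imported, whereas a core set is encoded by mitochondrial DNA and was not analysed here. The nuclear subunit genes are known for shared promoter elements bound by NRF1, ETS factors of the GABP type, CREB, YY1 and SP1. Cytochrome c also triggers apoptosis when it leaves the mitochondrion.

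To look for known promoter elements, RefSeq promoter windows (build GRCh38.p14, 250 bases before to 50 after the transcription start, 300 bases in all) were matched to 65 of the 77 subunit genes. The letters searched, on both strands, were GCGCATGC for NRF1, CCGGAAG for ETS factors, TGACGTCA for the cyclic AMP response element (CRE) bound by CREB, AAGATGGC for YY1 and GGGCGG for SP1. None of these words contains another, although 2 NRF1 words can overlap in a palindrome. The 180 bases upstream of the start are shown for 7 subunit genes, all of which hold an NRF1, ETS or CRE word there. These words are in capitals, and SP1 words are left in lower case. The genes shown are thus not typical of the set, for which shares are given below. The same 180 bases held no NRF1, ETS or CRE word in NDUFB10, NDUFB6 and NDUFA8 (lower in both comparisons) and in NDUFV2 (lower with IFNγ). Positions count back from -1, the base before the start.
CYCS (chr7:25125261-25125440, minus strand; lower with BRG1 in both comparisons; NRF1 word at -169 to -162): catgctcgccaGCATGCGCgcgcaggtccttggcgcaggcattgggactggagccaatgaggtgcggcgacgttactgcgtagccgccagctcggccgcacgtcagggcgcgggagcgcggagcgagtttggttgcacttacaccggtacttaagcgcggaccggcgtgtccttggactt
UQCR11 (chr19:1605463-1605642, minus strand; lower in both; ETS words at -117 to -111 and -97 to -91): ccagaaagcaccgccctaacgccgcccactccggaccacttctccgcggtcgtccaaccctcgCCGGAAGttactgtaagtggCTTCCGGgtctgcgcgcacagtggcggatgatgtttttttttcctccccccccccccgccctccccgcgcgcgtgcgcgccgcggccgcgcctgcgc
NDUFS3 (chr11:47578894-47579073, plus strand; lower in both; ETS words at -102 to -96 and -83 to -77): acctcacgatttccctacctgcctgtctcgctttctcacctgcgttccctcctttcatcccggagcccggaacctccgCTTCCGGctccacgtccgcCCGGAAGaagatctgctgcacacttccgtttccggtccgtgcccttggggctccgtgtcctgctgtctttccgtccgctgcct
ATP5MC1 (chr17:48892607-48892786, plus strand; lower in both by the probe used; CRE at -57 to -50): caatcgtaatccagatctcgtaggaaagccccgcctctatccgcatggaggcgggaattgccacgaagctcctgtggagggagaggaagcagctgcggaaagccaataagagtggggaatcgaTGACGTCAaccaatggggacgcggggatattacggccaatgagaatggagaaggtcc
ATP5F1C (chr10:7787997-7788176, plus strand; lower in both; overlapping NRF1 words at -22 to -15 and -20 to -13): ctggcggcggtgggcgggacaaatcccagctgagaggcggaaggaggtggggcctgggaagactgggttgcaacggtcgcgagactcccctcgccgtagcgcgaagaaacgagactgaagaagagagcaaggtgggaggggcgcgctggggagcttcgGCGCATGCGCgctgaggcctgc
SDHD (chr11:112086693-112086872, plus strand; lower with IFNγ; overlapping NRF1 words at -110 to -103 and -108 to -101, ETS word at -77 to -71): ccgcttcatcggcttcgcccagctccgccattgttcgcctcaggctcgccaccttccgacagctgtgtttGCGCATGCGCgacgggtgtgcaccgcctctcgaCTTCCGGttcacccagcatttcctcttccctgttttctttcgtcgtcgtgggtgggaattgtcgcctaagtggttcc
COX5B (chr2:97645882-97646061, plus strand; not called in either comparison; NRF1 word at -136 to -129 and an ETS word at -37 to -31): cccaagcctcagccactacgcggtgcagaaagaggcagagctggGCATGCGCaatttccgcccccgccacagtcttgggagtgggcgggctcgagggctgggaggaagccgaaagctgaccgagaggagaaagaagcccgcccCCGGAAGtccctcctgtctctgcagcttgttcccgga

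The NRF1 word was in 12 of the 65 subunit windows (18.5%), against 5.90% of 8506 windows of genes tested on the array and 3.27% of all 27305 windows. The ETS word was in 19 (29.2%), against 19.7% and 10.7%. The YY1 word was in 9 (13.8%), against 5.69% and 3.03%, and the CRE in 4 (6.15%), against 3.52% and 1.98%. The SP1 word was in 36 (55.4%), fewer than the 70.2% of genes tested and more than the 44.6% of all windows. When the NRF1 search asked for the full palindrome of 10 letters, it found 4 subunit windows (6.15%), against 2.50% of genes tested. Between 40 subunits that were called lower with BRG1 in either comparison and 19 that were called lower in neither, the ETS word was in 12 (30%) and 7 (36.8%), the NRF1 word in 8 (20%) and 2 (10.5%), YY1 in 6 (15%) and 3 (15.8%), SP1 in 22 (55%) and 12 (63.2%), and the CRE in 4 (10%) and 0. The NRF1 word was shortened to 8 letters after the shares with 10 had been seen. These are descriptions of letters in a window, without a test, and the set lower with BRG1 was chosen by the results below.

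Raw mean intensity per array was lowest in IFNγ-treated Ad-BRG1 cells (539.9 to 571), followed by IFNγ-treated Ad-GFP cells (571 to 650.0), and lay between 612 and 666 on the 6 untreated arrays. A probe was called detected at a detection p under 0.05, which 15741 to 16828 probes per array reached. Across the genes tested, arrays of 1 group correlated at r 0.994 to 0.998 and arrays of different groups at 0.947 to 0.993. IRF1, an early IFNγ target, had mean log2 intensities of 7.95 and 8.52 without and 13.16 and 13.76 with IFNγ in Ad-GFP and Ad-BRG1 cells, as the IFNγ labels have it. The SMARCA4 probe read 8.70 in untreated Ad-GFP and 8.51 in untreated Ad-BRG1 cells. It was detected on all 12 arrays, those of Ad-GFP cells included. Since the place of this probe relative to the viral cDNA is not known here, it does not check the virus labels. Of 9 adrenal cortex markers 1 (CYP11A1) was detected on all arrays of a group, STAR, CYP17A1, NR5A1 and MC2R were detected on 0 of 12 arrays, 0 of 4 leukocyte markers with a probe passed, and of 3 endothelial markers 1 (PECAM1) passed. Neither labels nor files name a chip, slide or scan date, so no batch could be examined.

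Values below are log2 intensities after background correction and quantile normalization, differences are between means of 3 arrays, SE belongs to the difference, and adjusted p is from limma with Benjamini-Hochberg adjustment over all 10333 genes tested. The threshold for a call was 0.05 on the adjusted p, and the probe with the highest mean stood for its gene. Of the 77 subunit genes 69 were tested: 30 of complex I, 3 of complex II, 8 of complex III, 11 of complex IV, 16 of complex V and CYCS. The other 8 were detected on no array: COX4I2, COX6A2, COX6B2, COX7A1, COX8C, NDUFA5, NDUFB4 and NDUFS6, whose raw intensities lay between 112 and 153. Of these, COX4I2, COX6A2, COX6B2, COX7A1 and COX8C are tissue-restricted isoforms of complex IV subunits, known from lung, heart and skeletal muscle or testis. Their ubiquitous partners COX4I1, COX6A1, COX6B1, COX7A2 and COX8A were all detected. NDUFA5, NDUFB4 and NDUFS6 are subunits of complex I in every tissue, so that for them an undetected probe gives no level.

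Without IFNγ, 32 of the 69 subunit genes were called lower in Ad-BRG1 than in Ad-GFP cells (46.4%), 1 was called higher (1.45%) and 36 were not called, while over all genes tested 30.3% were called lower and 26.7% higher. The median difference of the subunits was -0.16, against -0.031 over all genes, and 57 of the 69 had a negative difference. All 33 called subunits stood apart between the groups on single arrays, as did 96.9% of all called genes, and so did 11 of the 36 that were not called. Called or not, 59.4% of subunits lay wholly below and 4.35% wholly above, beside 33.3% and 29.5% of all genes tested. Most differences were small. CYCS, UQCR11, COX7B2, ATP5F1D and NDUFB1 were lower by 0.5 or more on the log2 scale. For NDUFC2, which was undetected in untreated Ad-BRG1 cells, there is a lower bound alone. With NDUFC2 counted, 6 of the 69 subunits were called lower by 0.5 or more, beside 1332 of the 10333 genes tested, a larger share. On single arrays, the median over the 69 subunits was 12.74, 12.78 and 12.68 in untreated Ad-GFP cells and 12.58, 12.52 and 12.55 in untreated Ad-BRG1 cells. In the 12 fits that each left out 1 array, 20 of the 32 lower calls passed every time. The other 12, lost in at least 1 fit, were ATP5F1C, ATP5ME, ATP5MF, ATP5PF, COX8A, NDUFA8, NDUFAB1, NDUFB2, NDUFB5, NDUFS1, NDUFS8 and UQCRB. In bulk RNA, less mRNA per cell and fewer cells of a kind cannot be told apart.

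**Figure D1:**
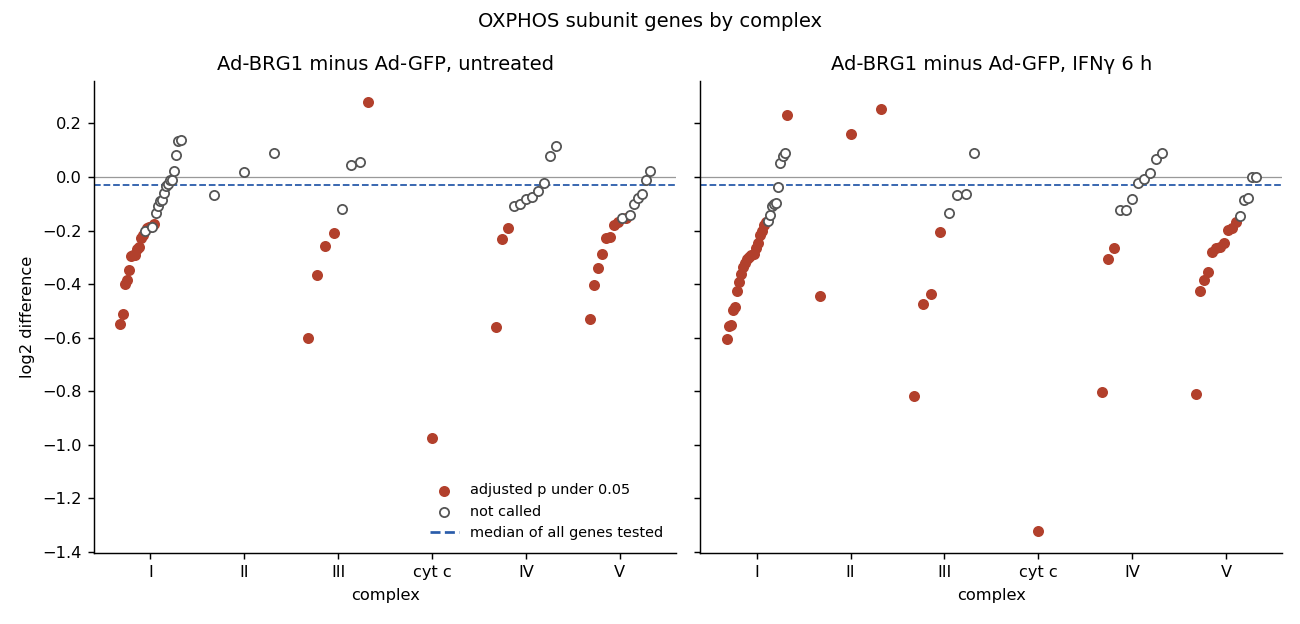
Log2 difference between Ad-BRG1 and Ad-GFP cells (y axis) of each tested subunit gene, grouped by complex (x axis; cyt c is CYCS), in untreated cells (left) and after IFNγ for 6 h (right). Filled points passed an adjusted p under 0.05, open points did not, and the dashed line is the median of all 10333 genes tested; CYCS is the lowest point in both panels.

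CYCS (gene identifier 54205, chromosome 7), the gene for somatic cytochrome c, had the largest difference in both BRG1 comparisons among the probes that stood for a subunit. It read 8.69, 8.78 and 8.59 in untreated Ad-GFP cells and 7.78, 7.76 and 7.59 in untreated Ad-BRG1 cells. With IFNγ it read 8.70, 8.62 and 8.64 in Ad-GFP cells and 7.25, 7.25 and 7.50 in Ad-BRG1 cells. All 6 Ad-BRG1 arrays lay below all 6 Ad-GFP arrays. The difference was -0.98 without IFNγ (1.97-fold lower, SE 0.085, adjusted p = 9.83e-07) and -1.32 with IFNγ (2.50-fold lower, SE 0.085, adjusted p = 4.91e-08). Within Ad-BRG1 cells CYCS fell by 0.38 with IFNγ (SE 0.085, adjusted p = 0.00614), with the 3 treated arrays below the 3 untreated ones, whereas within Ad-GFP cells the difference was -0.030 (adjusted p = 0.88). The difference between those responses, -0.35 (SE 0.12), did not pass (adjusted p = 0.0851).

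Complex I, the NADH dehydrogenase, had 15 of its 30 tested subunits called lower and 0 higher without IFNγ, and 20 lower and 1 higher with IFNγ, with medians of -0.18 and -0.26. The shares lower, 50% and 66.7%, stood beside 30.3% and 32.8% of all genes tested. In the N module, which oxidises NADH, 4 of 7 were lower without and 6 of 7 with IFNγ. NDUFV1, which binds NADH and FMN, differed by -0.29 (SE 0.079, adjusted p = 0.00693) and -0.32 (adjusted p = 0.00343). NDUFS1, the large iron-sulfur subunit, differed by -0.29 and -0.49 (SE 0.11, adjusted p = 0.0364 and 0.002), and its call without IFNγ was lost when untreated Ad-GFP replicate 1 or 3 or untreated Ad-BRG1 replicate 1 or 2 was left out (-0.26 to -0.28, adjusted p 0.0881 to 0.11), and with average normalization (-0.15, adjusted p = 0.0549). All 3 tested subunits of the Q module, where ubiquinone is reduced, were lower in both comparisons. These were NDUFS3 (-0.27 and -0.43), NDUFS7 (-0.39 and -0.22) and NDUFS8 (-0.19 and -0.25), with SEs of 0.06, 0.075 and 0.06. NDUFS3, whose promoter with 2 ETS words is shown above, read 12.52, 12.59 and 12.62 on the untreated Ad-GFP arrays, all above the 12.24, 12.32 and 12.36 of untreated Ad-BRG1 cells.

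In the proton-pumping membrane arm of complex I and its interface, 8 of 20 were lower without (40%, all genes 30.3%) and 11 of 20 with IFNγ (55%, all genes 32.8%). NDUFB10 (gene identifier 4716, chromosome 16), an accessory subunit of the distal membrane arm, read 12.94, 12.97 and 12.90 in untreated Ad-GFP and 12.50, 12.58 and 12.55 in untreated Ad-BRG1 cells. With IFNγ it read 13.15, 13.01 and 12.96 against 12.51, 12.36 and 12.43. The 2 viruses parted without overlap at either condition, by -0.40 (1.32-fold lower, SE 0.068, adjusted p = 0.000278) and -0.60 (1.52-fold lower, adjusted p = 7.7e-06). NDUFB1, a small accessory subunit, differed by -0.51 (SE 0.066, adjusted p = 2.96e-05) and -0.36 (adjusted p = 0.000415). NDUFAB1, the mitochondrial acyl carrier protein, differed by -0.22 (SE 0.084, adjusted p = 0.0439) and -0.56 (adjusted p = 9.94e-05). NDUFC2, a membrane arm subunit, read 5.78, 5.66 and 5.91 in untreated Ad-GFP cells and was not above background on any of the 3 untreated Ad-BRG1 arrays, where it read 5.08, 5.34 and 5.29, so that it was at least 1.32-fold lower there (adjusted p = 0.000717). Its difference with IFNγ, -0.27 (adjusted p = 0.0438), turned to 0.029 with the authors' average normalization (adjusted p = 0.711). It was -0.16 without Ad-BRG1 IFNγ replicate 3 (adjusted p = 0.194) and -0.22 without Ad-GFP IFNγ replicate 3 (adjusted p = 0.139), and the call was also lost without Ad-GFP IFNγ replicate 1, untreated Ad-GFP replicate 1 or untreated Ad-BRG1 replicate 3. NDUFA11, a membrane arm subunit, was the single complex I gene called higher. It read 12.42, 12.51 and 12.43 with Ad-GFP against 12.76, 12.63 and 12.67 with Ad-BRG1, both with IFNγ (0.23, SE 0.058, adjusted p = 0.00409), but -0.048 (adjusted p = 0.635) when arrays were aligned on a common median.

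Complex II, succinate dehydrogenase, is the one complex that also belongs to the tricarboxylic acid (TCA) cycle. None of its 3 tested subunits was called without IFNγ by limma, with differences of 0.019 for SDHA, 0.09 for SDHC and -0.066 for SDHD. With IFNγ 2 subunits were called higher and 1 lower. SDHA, the flavoprotein, was 0.16 higher (SE 0.058, adjusted p = 0.0274) and SDHC, a membrane anchor, 0.25 higher (SE 0.084, adjusted p = 0.0197), but with arrays on a common median these values were -0.093 and -0.016. SDHA and SDHC also each had a second probe that was not called (-0.060 and -0.14). Of the IFNγ-treated arrays, leaving out Ad-GFP replicate 1 or Ad-BRG1 replicate 3 ended both calls (SDHA 0.15 and 0.15, SDHC 0.20 and 0.20), leaving out Ad-GFP replicate 2 (0.14) or Ad-BRG1 replicate 1 (0.16) ended that of SDHA, and leaving out Ad-GFP replicate 3 (0.24) or Ad-BRG1 replicate 2 (0.24) that of SDHC. SDHD, the other anchor, read 11.73, 11.70 and 11.85 with Ad-GFP against 11.47, 11.19 and 11.28 with Ad-BRG1, both with IFNγ, a fall of 0.45 (SE 0.085, adjusted p = 0.000599) with no overlap. The iron-sulfur subunits SDHB of complex II and UQCRFS1 of complex III were not analysed here.

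Complex III, the cytochrome bc1 complex, had 4 of 8 tested subunits lower in each BRG1 comparison and 1 higher without IFNγ. Over all genes tested, 30.3% were lower without and 32.8% with IFNγ. UQCR11 (gene identifier 10975, chromosome 19), a small accessory subunit, read 8.64, 8.71 and 8.63 in untreated Ad-GFP cells and 8.13, 8.11 and 7.93 in untreated Ad-BRG1 cells. With IFNγ it read 8.72, 8.68 and 8.47 against 7.80, 7.98 and 7.64. Both pairs of groups stood apart, by -0.60 (1.52-fold lower, SE 0.095, adjusted p = 0.000165) and -0.82 (1.76-fold lower, adjusted p = 1.13e-05). CYC1, the catalytic heme subunit that hands electrons to cytochrome c, read 13.64, 13.59 and 13.51 against 13.16, 13.27 and 13.20 untreated. These did not overlap, and the differences were -0.37 without (SE 0.074, adjusted p = 0.00107) and -0.48 with IFNγ (adjusted p = 0.000127). UQCRH, the hinge protein, differed by -0.26 and -0.21 (SE 0.067), and without Ad-GFP IFNγ replicate 2 the second value was -0.17 and not called (adjusted p = 0.0709). UQCRB was called lower without IFNγ at the edge of the threshold (-0.21, adjusted p = 0.0499), a call lost in 8 of the 12 fits without 1 array. Of the core proteins, UQCRC1 was called in untreated cells and UQCRC2 with IFNγ. UQCRC1 rose in untreated cells, reading 10.91, 10.94 and 10.89 with Ad-GFP against 11.20, 11.23 and 11.16 with Ad-BRG1 (0.28, SE 0.072, adjusted p = 0.00524). With IFNγ it read 10.81, 10.99 and 11.03 against 10.78, 10.92 and 10.94, groups that overlapped (-0.062, adjusted p = 0.473). UQCRC2 differed by -0.12 (adjusted p = 0.241) without and -0.44 (SE 0.083, adjusted p = 0.000569) with IFNγ.

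**Figure D2:**
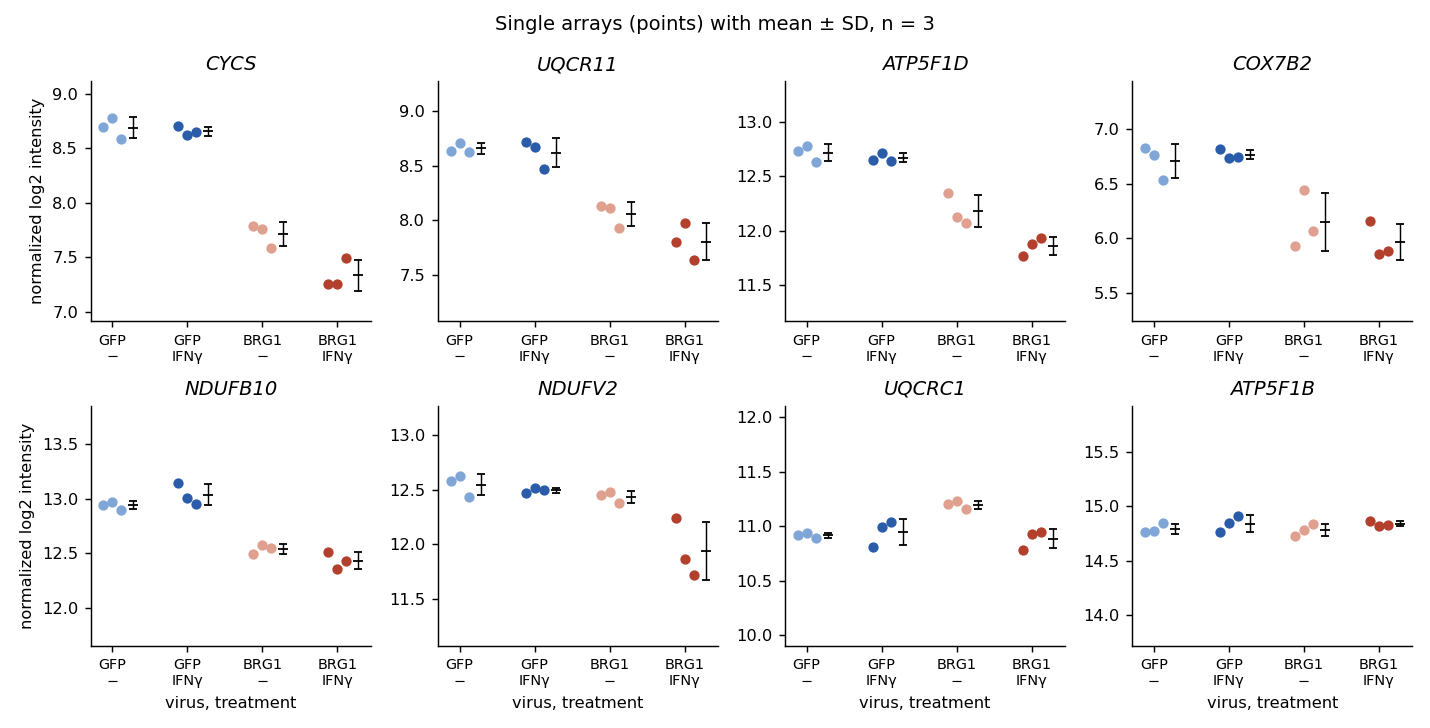
Normalized log2 intensity (y axis, every panel spanning the same range of log2 units) of 8 subunit genes on each of the 12 arrays, by virus and treatment (x axis). Points are single arrays and bars the mean ± SD of 3. CYCS, UQCR11, ATP5F1D, COX7B2 and NDUFB10 are lower on every Ad-BRG1 array than on every Ad-GFP array. NDUFV2 is low in Ad-BRG1 cells with IFNγ alone, UQCRC1 is high in untreated Ad-BRG1 cells alone, and ATP5F1B is level at this scaling.

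Complex IV, cytochrome c oxidase, had 3 of 11 tested subunits lower and 0 higher in each comparison, with medians of -0.084 in both. That share lower (27.3%) did not exceed the 30.3% and 32.8% of all genes. COX7B2 (gene identifier 170712, chromosome 4), a paralog of COX7B known from testis, was the largest change. It read 6.83, 6.77 and 6.54 in untreated Ad-GFP cells and 5.93, 6.45 and 6.07 in untreated Ad-BRG1 cells, and 6.82, 6.74 and 6.75 against 6.16, 5.86 and 5.88 with IFNγ. It was detected on all 12 arrays, and the groups did not overlap, with differences of -0.56 (1.48-fold lower, SE 0.13, adjusted p = 0.00231) and -0.80 (1.74-fold lower, adjusted p = 0.000144). COX7B, the ubiquitous form, differed by 0.11 (SE 0.094, adjusted p = 0.32) without and by -0.31 (adjusted p = 0.0127) with IFNγ, the latter not called without Ad-BRG1 IFNγ replicate 3 (-0.25, adjusted p = 0.0543). COX5A was lower with IFNγ (-0.26, SE 0.068, adjusted p = 0.00492). COX6B1 and COX8A were lower without IFNγ (-0.23, adjusted p = 0.00738, and -0.19, adjusted p = 0.0419), and the COX8A call was lost in 9 of the 12 fits without 1 array (adjusted p up to 0.153). COX4I1, which joins the core early in assembly, COX6A1 and COX7A2 were not called in either comparison, with differences between -0.12 and 0.067. The 95% intervals for COX4I1 after quantile normalization were -0.21 to 0.11 without and -0.095 to 0.23 with IFNγ. These values depend on the scaling: with arrays on a common median, all 69 tested subunits lay below zero with IFNγ.

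Complex V, ATP synthase, had 9 of 16 subunits lower without (56.2%, all genes 30.3%) and 11 of 16 with IFNγ (68.8%, all genes 32.8%), and 0 higher, with medians of -0.16 and -0.22. ATP5F1B, the catalytic β subunit, read 14.77, 14.77 and 14.84 against 14.73, 14.78 and 14.83 untreated. Its intervals after quantile normalization were -0.14 to 0.12 without and -0.14 to 0.13 with IFNγ. With arrays on a common median, ATP5F1B and every other tested subunit lay below zero with IFNγ. ATP5F1A, the α subunit, was not called (-0.16, adjusted p = 0.061, and -0.14, adjusted p = 0.0755). ATP5F1D (gene identifier 513, chromosome 19), the δ subunit of the central stalk, read 12.74, 12.78 and 12.63 in untreated Ad-GFP and 12.35, 12.13 and 12.08 in untreated Ad-BRG1 cells. With IFNγ it read 12.65, 12.72 and 12.64 against 11.77, 11.88 and 11.93. No Ad-BRG1 array reached an Ad-GFP array, and the differences were -0.53 (1.44-fold lower, SE 0.081, adjusted p = 0.000121) and -0.81 (1.75-fold lower, adjusted p = 2.8e-06). ATP5F1C, the γ shaft, differed by -0.17 (SE 0.061, adjusted p = 0.0319, -0.12 and not called without untreated Ad-BRG1 replicate 3) and -0.43 (adjusted p = 6.17e-05), and ATP5F1E, the ε subunit, by -0.10 (adjusted p = 0.178) and -0.24 (adjusted p = 0.00363). ATP5MC1 and ATP5MC2, which encode the same mature c-ring protein, differed by -0.40 and -0.29 without and by -0.26 and -0.26 with IFNγ, all called (adjusted p at most 0.00542). A second ATP5MC1 probe was called in the opposite direction in both comparisons (0.52 and 0.39). In the peripheral stalk, ATP5PD was lower with IFNγ (-0.38, SE 0.066, adjusted p = 0.000272), as was ATP5PB (-0.19, adjusted p = 0.0187), whereas ATP5PO was not called in either comparison (-0.063 and -0.087). ATP5PF was called lower without IFNγ alone, with means of 13.72 in Ad-GFP and 13.50 in Ad-BRG1 cells. That call was lost in 3 of the 12 fits without 1 array. With IFNγ the ATP5PF means were 13.61 and 13.53.

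With IFNγ present in both cell types, 40 of the 69 subunits were lower in Ad-BRG1 cells (58%) and 3 higher (4.35%), the latter being NDUFA11, SDHA and SDHC. Over all genes tested 32.8% were called lower and 28.3% higher. The median difference was -0.20, against -0.029 over all genes. Of the 69 subunits 7 were called lower by 0.5 or more, beside 1589 of the 10333 genes tested, a larger share. All 43 called subunits stood apart on single arrays, as did 96.5% of all called genes, and so did 7 of the 26 that were not called. Called or not, 65.2% of subunits lay wholly below and 7.25% wholly above, beside 35.2% and 30.1% of all genes tested. Of the 40 lower calls 29 passed in all 12 fits that left out 1 array, and the 11 that did not were ATP5ME, ATP5MF, ATP5PB, COX7B, NDUFA9, NDUFB2, NDUFB7, NDUFC2, NDUFS7, NDUFV3 and UQCRH. Of the 3 higher calls, that of NDUFA11 passed every time, and those of SDHA and SDHC did not. With arrays aligned on a common median instead of quantile normalization, the median of all genes moved to -0.21 and that of the subunits to -0.46, so that the distance between them, -0.17 in the main setting, was -0.25, and 62 subunits were called lower (89.9%) and 0 higher, beside 47.3% and 17.6% of all genes. With the authors' average normalization that distance was also -0.25, with 66.7% of subunits lower and 2.90% higher, while calls over all genes turned from 28.3% higher and 32.8% lower to 34.2% higher and 28.1% lower.

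The comparisons of Ad-BRG1 with Ad-GFP cells without and with IFNγ share no arrays. Their calls come from 1 fit that pooled the spread of each gene over all 12 arrays, and so are not independent. Of the subunits, 26 were lower in both, which is 81.2% of the 32 lower without IFNγ and 65% of the 40 lower with IFNγ. Over all genes tested, 77.3% of those lower without IFNγ were also lower with it, close to the share of the subunits. Another 14 were lower with IFNγ alone, 6 without IFNγ alone, and 23 in neither. The sign was the same for 57 of 69 subunits. Across the 69 subunits the differences correlated at r 0.722, and across all 10333 genes tested at 0.82, given as descriptions since genes measured on the same arrays are not independent. Calls in 1 comparison alone are not shown to differ, and the test of that difference is the interaction below.

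**Figure D3:**
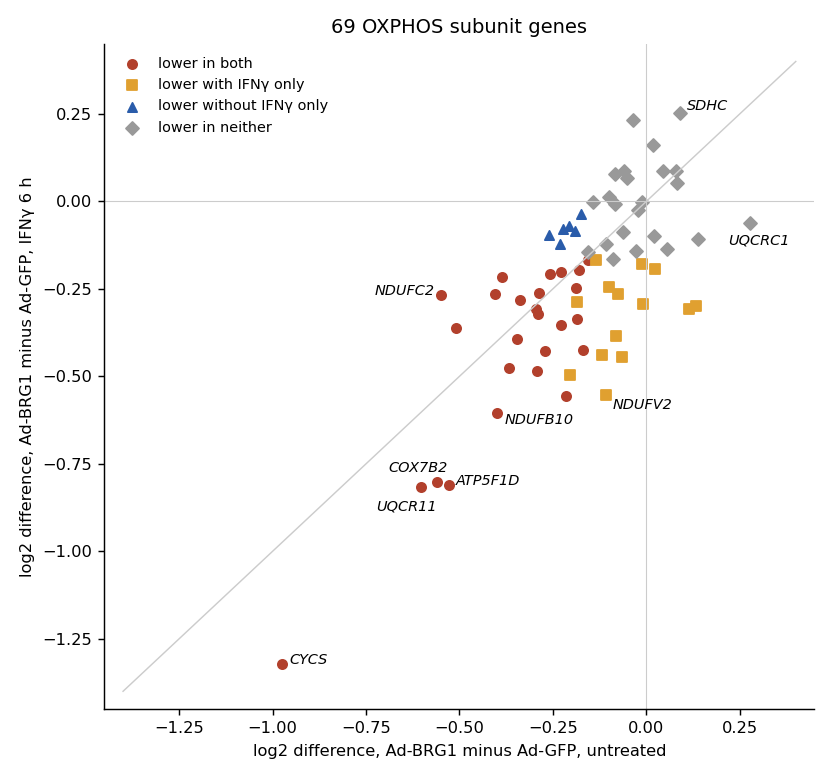
Log2 difference between Ad-BRG1 and Ad-GFP cells without IFNγ (x axis) and with IFNγ for 6 h (y axis) for the 69 tested subunit genes. Colour and shape give the comparisons in which a gene was called lower, and the diagonal marks equal differences; 26 genes were lower in both, and CYCS lies farthest from zero on both axes.

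No subunit passed the test for a response to IFNγ in cells without BRG1. In Ad-GFP cells limma called 0 of 69 subunits higher and 0 lower after 6 h, against 3.1% higher and 0.977% lower over all genes tested. At an unadjusted p under 0.05, 4 were lower (5.80%) and 2 higher (2.90%), against 9.37% and 9.46% of all genes. The median difference was -0.035 (all genes -0.024), and the range was -0.23 to 0.19. NDUFB1 had the smallest adjusted p (-0.23, SE 0.066, adjusted p = 0.0729) and NDUFA11 the next (-0.19, SE 0.058, adjusted p = 0.0961). NDUFA11 read 12.63, 12.63 and 12.68 without and 12.42, 12.51 and 12.43 with IFNγ, groups that did not overlap. Called or not, 17.4% of subunits and 16.1% of all genes tested lay wholly below in this comparison.

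In Ad-BRG1 cells 16 of the 69 subunits fell with IFNγ (23.2%) and 0 rose, against 19.6% lower and 13.1% higher over all genes tested, so that the share called lower was near the background. They were 4 of complex I, 3 of complex III, 2 of complex IV, 6 of complex V and CYCS. At an unadjusted p under 0.05, 25 were lower (36.2%) and 2 higher (2.90%), against 26.3% and 18% of all genes. NDUFV2 (gene identifier 4729, chromosome 18), the iron-sulfur partner of NDUFV1, fell most, reading 12.45, 12.48 and 12.38 untreated and 12.24, 11.86 and 11.72 with IFNγ (-0.50, 1.41-fold lower, SE 0.11, adjusted p = 0.00523). Its treated arrays spread widely (SD 0.27), and yet all lay below the untreated ones. NDUFC1, a small membrane arm subunit, read 11.44, 11.38 and 11.24 against 11.20, 10.89 and 10.79 (-0.39, SE 0.10, adjusted p = 0.0116). ATP5PD, subunit d of the peripheral stalk, read 13.98, 13.90 and 13.88 against 13.61, 13.54 and 13.53 (-0.36, SE 0.066, adjusted p = 0.00182). ATP5F1D fell by 0.32 (SE 0.081, adjusted p = 0.0103), COX7B by 0.31 (adjusted p = 0.0242), UQCRC1 by 0.31 (adjusted p = 0.0068) and CYC1 by 0.22 (adjusted p = 0.0362).

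Of the 16 calls 8 passed in all 12 fits that left out 1 array, namely ATP5F1C, ATP5F1D, ATP5MJ, ATP5PB, ATP5PD, CYCS, NDUFV2 and UQCRC1. The count was 9 without untreated Ad-BRG1 replicate 1 and 10 without Ad-BRG1 IFNγ replicate 3, and the call of NDUFC1 was lost in both fits (-0.35, adjusted p = 0.0506, and -0.31, adjusted p = 0.0507). COX7B and CYC1 lost their calls in those fits and in others, COX7B without replicate 2 of untreated (-0.32, adjusted p = 0.0538) or IFNγ-treated Ad-BRG1 cells (-0.30, adjusted p = 0.0682), and CYC1 in 5 of the 6 fits that left out an Ad-BRG1 array (-0.18 to -0.25, adjusted p 0.0562 to 0.132). With average normalization, calls over all genes turned to 16.6% higher and 14.6% lower, and 27.5% of subunits were lower. Raw mean intensity was also lowest in the IFNγ-treated Ad-BRG1 arrays, as given above, and its part in these values was not tested apart from the other scalings.

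The interaction, the difference between the responses of Ad-BRG1 and Ad-GFP cells to IFNγ (Ad-BRG1 minus Ad-GFP), had 0 of 69 subunits called higher or lower by limma, against 4.32% higher and 3.83% lower over all genes tested. At an unadjusted p under 0.05, 14 subunits were below zero (20.3%) and 1 above (1.45%), against 15.9% and 13.1% of all genes. The closest to the threshold were UQCRC1 (-0.34, SE 0.10, adjusted p = 0.0566), ATP5PD (-0.30, SE 0.093, adjusted p = 0.0615), NDUFA11 (0.27, SE 0.082, adjusted p = 0.0626), NDUFV3 (-0.43, adjusted p = 0.0662), COX7B (-0.42, adjusted p = 0.0663) and SDHD (-0.38, adjusted p = 0.067). This count turned on single arrays and on the scaling, as did that of all genes. It was 8 lower (11.6%) without untreated Ad-BRG1 replicate 3, where 7.32% of all genes were lower, and 6 (8.7%) without Ad-BRG1 IFNγ replicate 1, where 7.59% were. Without Ad-GFP IFNγ replicate 1 it was 1. With average normalization it was 7 (10.1%, all genes 4.44%), and on a common median 21 (30.4%, all genes 16.7%).

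Several subunits had more than 1 detected probe, which gives a second reading of the same gene. Of 20 such subunits, 15 had probes of the same sign without IFNγ and 17 with IFNγ, and all probes were called lower for 6 and 9. The probes of 1 gene differed in call for as many, 6 without and 9 with IFNγ. For ATP5F1D the second probe differed by -0.59 and -0.90, close to the first (-0.53 and -0.81). ATP5MC1 was the 1 subunit whose probes were called in both directions, as given above. For ATP5MG, subunit g of the membrane part, the probe used was not called (-0.14 and -0.001), while the second fell by 1.39 and 1.71, a larger fall than that of any probe used. UQCR10 had 3 probes, of which the one used was not called (0.055 and -0.14) and another fell by 0.64 with IFNγ. Probe sequences were not used here, so which transcripts each probe reads is not known.

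**Figure D4:**
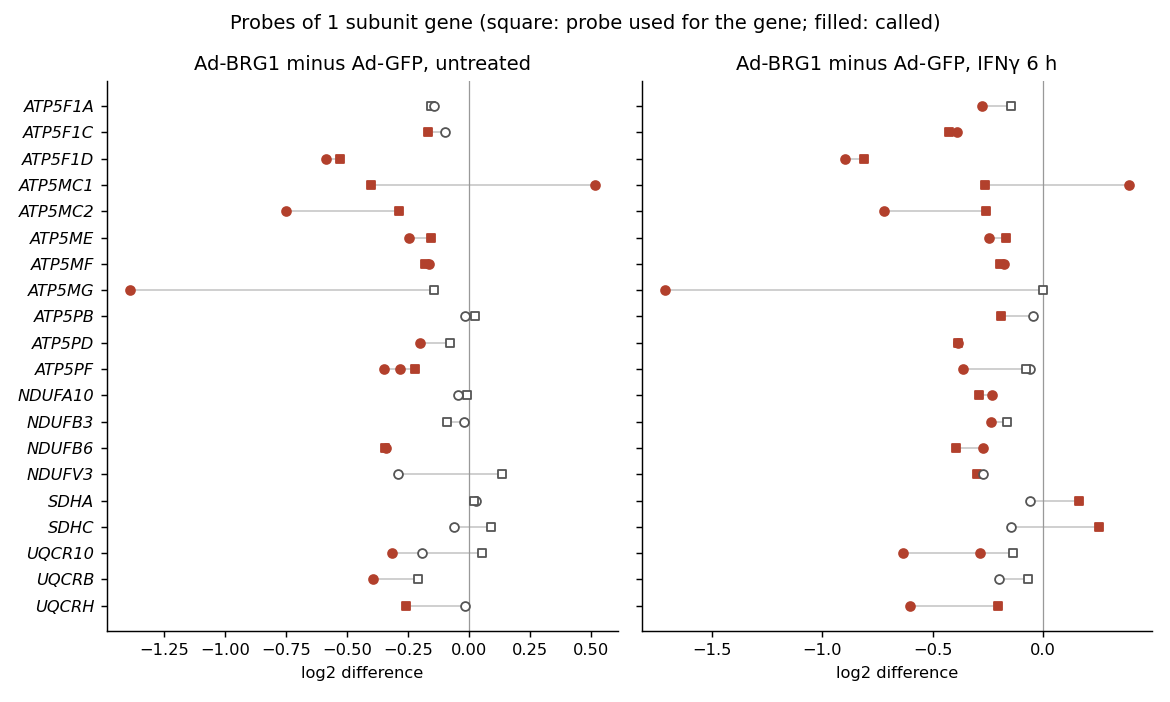
Log2 difference between Ad-BRG1 and Ad-GFP cells (x axis) for every detected probe of the 20 subunit genes with more than 1 (y axis), untreated (left) and with IFNγ (right). Squares are the probes used for the genes, circles the other probes, filled symbols passed an adjusted p under 0.05, and lines join the probes of a gene; ATP5MC1 spans zero in both panels and ATP5MG spans the widest range.

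Other genes of the same organelle were examined in lists of named genes. Beside the counts here and for the TCA cycle and regulators below, 30.3% of all genes tested were called lower and 26.7% higher without IFNγ. With IFNγ these shares were 32.8% and 28.3%. The mitochondrial ribosome, which translates the subunits encoded by mitochondrial DNA, had 48 of 78 tested genes lower and 2 higher with BRG1 without IFNγ, and 58 lower and 4 higher with IFNγ, with medians of -0.27 and -0.37. MRPS26 differed by -0.97 and -1.05 and MRPL34 by -0.77 and -0.89, whereas MRPS6 was 0.93 and 1.17 higher. Import receptors and translocases (TOMM and TIMM genes) had 10 and 12 of 19 lower and 0 higher in both, with TIMM10, a chaperone of the intermembrane space, at -0.91 and -0.78. OXPHOS assembly factors had 24 and 27 of 50 lower and 4 and 6 higher. Among those that act on complex IV, COX20 differed by -0.99 and -1.44 and the copper chaperone COX17 by -0.81 and -0.55, and FMC1, which in yeast assists ATP synthase assembly, was 0.93 and 0.64 higher.

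TCA cycle genes were called higher more often than lower. Of 16 tested, 7 were higher and 3 lower in each BRG1 comparison, with medians of 0.12 and 0.059, but this balance depended on the scaling: with average normalization it was 7 and 4 without and 5 and 5 with IFNγ, and on a common median 3 and 4 without and 2 and 8 with IFNγ (medians 0.047 and -0.18). The other 4 lists had more genes lower than higher under each scaling. On a common median so did all genes tested, with 32.7% lower and 22.8% higher without and 47.3% and 17.6% with IFNγ. OGDH, of the 2-oxoglutarate dehydrogenase complex, was 0.56 and 0.59 higher (SE 0.095), and IDH2, the NADP-linked isocitrate dehydrogenase, 0.54 higher in each (SE 0.067), while MDH2, malate dehydrogenase, differed by -0.40 and -0.33 (SE 0.077). Among regulators of mitochondrial gene expression, 8 and 9 of 15 tested were lower and 3 and 1 higher. POLRMT, the mitochondrial RNA polymerase, differed by -0.80 and -0.94 (SE 0.085), TFB2M, its initiation factor, by -0.53 and -0.93 (SE 0.077), and TFAM, which packages mitochondrial DNA, by -0.66 and -0.37 (SE 0.085). GABPA, the DNA-binding subunit of the ETS factor GABP, was lower without IFNγ (-0.94, SE 0.19, adjusted p = 0.00115) and not called with it (0.022, adjusted p = 0.926), with an interaction of 0.96 (adjusted p = 0.0496) that was lost in 10 of the 12 fits without 1 array. The other interaction calls among the regulators, TFB2M and ESRRA, were below zero and were lost in 10 and 8 of those fits. ESRRA was called higher without and lower with IFNγ, calls lost in 5 and 8 of those fits. NRF1 was not called in either comparison (-0.11 and -0.21).

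**Figure D5:**
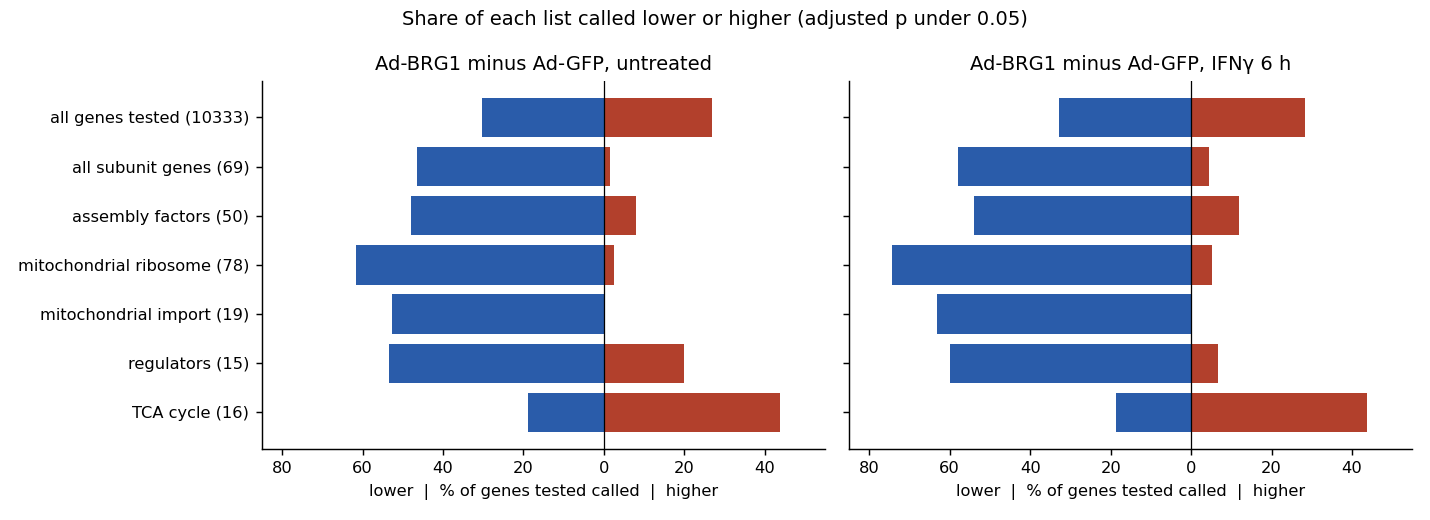
Share of tested genes (x axis, percent, lower to the left and higher to the right of zero) called at an adjusted p under 0.05 between Ad-BRG1 and Ad-GFP cells, for all genes tested, the subunit genes and 5 other mitochondrial lists (y axis, number tested in brackets), untreated (left) and with IFNγ (right). Subunit genes were called lower in 46.4% and 58% and higher in 1.45% and 4.35%, and of the mitochondrial lists the TCA cycle has more genes higher than lower at this scaling.

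Of the 3 pseudogenes, ATP5F1EP2 was called lower without IFNγ (-0.16, SE 0.063, adjusted p = 0.0452, lost in 10 of the 12 fits without 1 array), SDHAP1 fell by 0.48 with IFNγ in Ad-BRG1 cells (SE 0.092, adjusted p = 0.00258; -0.17 and not called with average normalization, adjusted p = 0.0523), and SDHAP3 was not called. Their sequences are near copies of ATP5F1E and SDHA, and a probe may read both, so these values are uncertain.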

How the data were processed

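RNA of 12 SW-13 cultures (total RNA, Trizol, biotin-labelled cRNA) was hybridised to 1-colour Illumina Human-WG6 BeadChips. The authors used BeadStudio, whose version is not given in the sources used here. The deposited probe intensity is neither background-corrected nor normalized, and the deposited detection p-value gives, per probe and array, how far it stands above negative controls. A second deposited table holds intensity after the authors' average normalization, in which each array was multiplied by 1 constant (0.924 to 1.14).

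Starting from the deposited intensity, log2 values were computed from the authors' file with limma 3.58.1 in R 4.3.3 (neqc: normexp background correction with negative controls inferred from the detection p, offset 16, quantile normalization). Of 48803 probes, 27578 were annotated with 1 symbol, 13 with several and 21212 with none. Probes detected (p under 0.05) on all 3 arrays of a group were kept (16233, 13374 of them with 1 symbol), and the brightest stood for its gene, giving 10333 genes. The 4 group means were fitted together (lmFit and eBayes, 8 residual and 4.24 prior degrees of freedom). The BRG1 effect without and with IFNγ, the IFNγ response in either cell type and their interaction were tested, two-sided, and adjusted by Benjamini-Hochberg over all genes tested. The fit was tested on simulated data. Replicates are biological per the methods, but the labels do not name separate cultures, so p-values measure the spread between these samples. The number of arrays limits the precision.

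Per comparison, the 5 called members with the largest change whose groups did not overlap were named, with isoform pairs, catalytic or cofactor subunits and members called in the interaction. Other genes and the array values given for them were chosen after their values were seen. Members, gene lists and motifs were chosen with earlier results of these data known. Alternatives comprised other normalizations and detection filters, every probe as its own feature, only the groups compared, the replicate number as a block, and fits without 1 array each. The lists at other scalings were added after seeing the data. Python 3.11.15 (pandas 2.3.3, matplotlib 3.10.9) was used for tables, motif counts and plots.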

Additional observations from a re-analysis of the deposited data

How the results depend on the processing

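Counts are subunits called of 69, except for the stricter detection (67 subunits), no detection filter (77) and every probe as its own feature (91 probes). With arrays aligned on a common median, the IFNγ response in Ad-BRG1 cells had 46 lower (66.7%, all genes 43.2%, median -0.30). The BRG1 effect with IFNγ had 62 lower (89.9%, all genes 47.3%) and 0 higher (median -0.46), and that without IFNγ a median of -0.19. The interaction had 21 lower (30.4%, all genes 16.7%, median -0.25). On that scale the BRG1 effect with IFNγ turned for NDUFA11 (-0.048), SDHA (-0.093) and SDHC (-0.016), and with average normalization for NDUFC2 (0.029). The cause was not tested, other than that this scaling also moved the median of all genes to -0.21 in both comparisons with IFNγ-treated Ad-BRG1 cells. With average normalization the interaction had 7 lower (10.1%, all genes 4.44%). It had 7 lower and 1 higher with quantile normalization without background correction (10.1% and 1.45%, all genes 6.92% and 7.21%). When detection at p under 0.01 on all 12 arrays was asked for, it had 5 lower (7.46%, all genes 7.18%) and 1 higher (1.49%, all genes 6.26%). With every probe as its own feature 1 probe was lower (1.1%, all probes 3.52%). With the replicate block 4 subunits were lower (5.80%, all genes 5.91%). The IFNγ response in Ad-GFP cells had 1 lower without background correction or with the stricter detection, and that in Ad-BRG1 cells 1 higher with average normalization or without background correction. The BRG1 effect without IFNγ had a median of -0.12 with no detection filter, which adds dim genes, and 2 probes higher with every probe as its own feature.

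Without 1 array each, counts of lower subunits ranged over 33 to 40 (BRG1 effect with IFNγ), 22 to 33 (without), 9 to 20 (IFNγ in Ad-BRG1 cells), 0 to 1 (IFNγ in Ad-GFP cells) and 0 to 8 (interaction), and of higher ones over 1 to 3, 1 to 2, 0 to 1, 0 to 0 and 0 to 0. The 3 higher with IFNγ became 1 without Ad-GFP IFNγ replicate 1 or Ad-BRG1 IFNγ replicate 3, and the 1 higher without IFNγ became 2 without untreated Ad-GFP replicate 2. Medians ranged over -0.22 to -0.18, -0.16 to -0.14, -0.11 to -0.072, -0.044 to -0.024 and -0.057 to -0.019 in the same order. Same-numbered arrays deviated together with r of -0.193 to 0.439 over 18 pairs, and arrays of different numbers with r of -0.461 to 0.343. Of the 12 arrays, 7 correlated best with their own number. What a number stands for is not stated, and with 3 arrays per group these values cannot decide whether the samples were paired. With the number as a block, lower counts were 38, 29 and 17 for the BRG1 effect with and without IFNγ and IFNγ in Ad-BRG1 cells. These were 55.1%, 42% and 24.6% of subunits, beside 33.2%, 31.1% and 20.2% of all genes. Fits restricted to the pair of groups at hand gave 36, 25 and 11 (52.2%, 36.2% and 15.9%, all genes 31.6%, 29.6% and 12.3%). For 27 named members with 42 called values, 836 values under other settings held 779 of the same direction and call, 53 that lost the call and 4 that turned. Several settings reuse the same normalized values or leave out an array outside the comparison, so that the difference itself could not change. Some named members were also chosen for large differences without overlap, so these counts do not measure robustness. The number of arrays and, for NDUFC2, signal near background limit what could be called.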
